A study of Rattus norvegicus with 2 samples.

Results

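The transcriptional targets of p53 were followed in rat bone mesenchymal stem cells (BMSCs) after treatment with icariin, a plant flavonoid taken from Epimedium herbs. The genes followed were Cdkn1a, Mdm2, Plk2, Btg2, Gadd45a, Ccng1, Sesn1, Sesn2 and Tp53inp1, 9 of the 24210 genes on the array. They are read by 12 of its 26419 sequences, a sequence being 1 annotated transcript that is read by 5 probes in nearly all cases. The genes were chosen by name, from a list drawn up with the levels of these same arrays already known, so their differences are given as a description.

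The 2 arrays compare BMSCs given the solvent DMSO with BMSCs given icariin for a day at a single micromolar dose, on 1 array each. The cells were adherent marrow cells of Sprague-Dawley rats after early passages. The labels give female animals, whereas the methods of the study describe young males, and neither source gives the number of animals. With 1 array per condition no difference has a replicate check, no test between the conditions exists, and "higher" and "lower" compare the icariin array with the DMSO array. As bulk RNA was measured, fewer cells of a type and less RNA per cell cannot be told apart.

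The protein p53 is a transcription factor that is stabilised by DNA damage and other stresses and binds a pair of short palindromic motifs in the DNA of its target genes. Its targets halt the cell cycle, restrain oxidative stress, repair DNA or start apoptosis, and Mdm2 closes a feedback loop by marking p53 for degradation. In the osteoblast lineage of mice, p53 is known as a brake on differentiation. Several of the genes also answer to signals other than p53. Plk2 is annotated on the array as a serum-inducible kinase and Btg2 as a protein induced by nerve growth factor, and Sesn2 and Gadd45a are known targets of the amino acid and endoplasmic reticulum stress response.

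RefSeq promoter windows of the GRCr8 assembly, from 250 bases before to 50 bases after the annotated gene start, were present for 8 of the 9 genes. Each window was searched for the consensus p53 motif, a pair of half-sites of 10 bases each set 0 to 13 bases apart, with the central C and G of both half-sites required. The motif reads the same on both strands. A pair with at most 2 mismatches of 20 bases lay in the windows of 4 genes, against 3.53% of all 33469 windows. Cdkn1a, Gadd45a and Ccng1 had 1 mismatch, which 0.565% of all windows reach, and Sesn1 had 2. The stretches that hold these pairs are shown because they are the letters a p53 site would need, with both half-sites in capitals. They lie at chr20:7150716-7150765 (plus strand), chr4:97486823-97486883 (minus strand), chr10:25685084-25685126 (minus strand) and chr20:46948519-46948571 (plus strand).
Cdkn1a: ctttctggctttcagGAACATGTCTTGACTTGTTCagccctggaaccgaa
Gadd45a: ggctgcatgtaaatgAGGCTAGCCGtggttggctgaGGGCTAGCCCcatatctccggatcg
Ccng1: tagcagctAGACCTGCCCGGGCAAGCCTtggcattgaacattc
Sesn1: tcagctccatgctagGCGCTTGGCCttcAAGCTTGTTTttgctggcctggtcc

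The windows of Plk2, Btg2, Mdm2 and Sesn2 held neither an exact half-site nor a pair with so few mismatches, while an exact half-site alone was present in 7.98% of all windows. The letters are absent from these windows only, and known p53 sites of Mdm2 lie within the gene, downstream of the window. Both Plk2 and Btg2, the genes with the largest difference in each direction, carried the cyclic AMP response element TGACGTCA, a palindrome that was looked for after both sequences had been seen and is found in 1.83% of all windows. Their windows are shown whole, with this element in capitals, and lie at chr2:43702286-43702585 (plus strand) and chr13:48087641-48087940 (minus strand). A match of letters is a description and not a measured binding site.
Plk2: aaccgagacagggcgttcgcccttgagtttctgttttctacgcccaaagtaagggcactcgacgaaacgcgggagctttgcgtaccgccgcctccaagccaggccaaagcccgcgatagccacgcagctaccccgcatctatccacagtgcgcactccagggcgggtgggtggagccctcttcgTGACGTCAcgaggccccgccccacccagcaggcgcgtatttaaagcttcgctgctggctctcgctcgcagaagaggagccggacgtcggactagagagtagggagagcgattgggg
Btg2: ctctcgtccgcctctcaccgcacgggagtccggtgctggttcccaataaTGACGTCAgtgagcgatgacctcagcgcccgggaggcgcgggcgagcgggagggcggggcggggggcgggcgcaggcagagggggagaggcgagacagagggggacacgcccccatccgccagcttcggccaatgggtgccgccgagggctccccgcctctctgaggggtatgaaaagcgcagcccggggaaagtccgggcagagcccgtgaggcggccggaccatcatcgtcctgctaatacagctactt

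**Figure D1:**
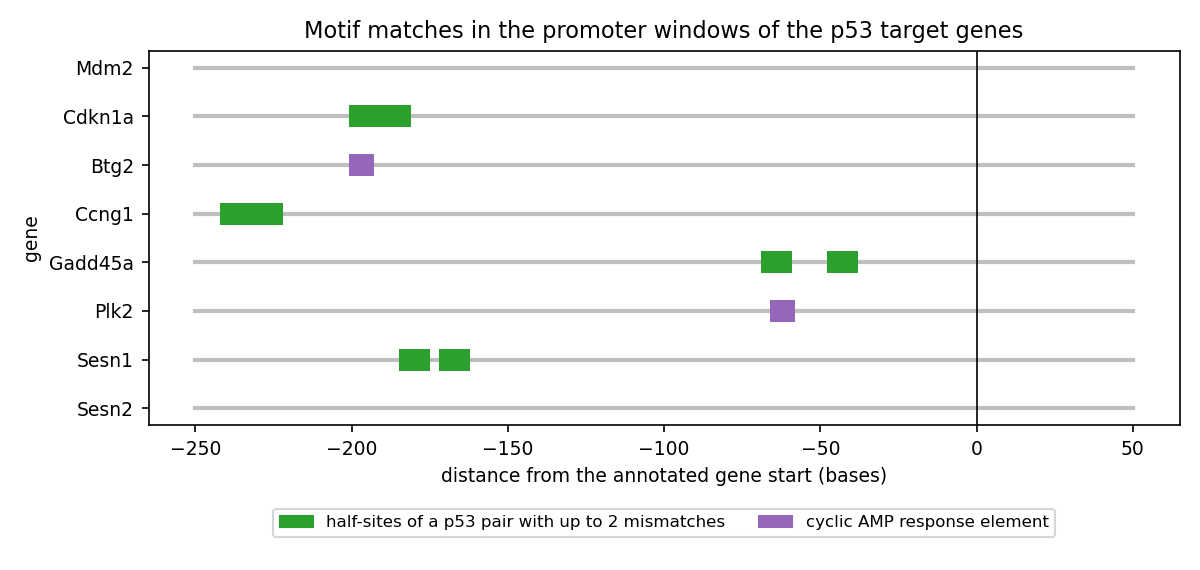
Position of motif matches in the promoter windows of the 8 p53 target genes with a window, in bases from the annotated gene start (0). Green boxes are the half-sites of a p53 pair with up to 2 mismatches, seen in Cdkn1a, Ccng1, Gadd45a and Sesn1, and purple boxes the cyclic AMP response element, seen in Btg2 and Plk2.

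Across the 9 genes the response was mixed. Plk2 was at least 2-fold higher on the icariin array, Btg2 was lower by at least 2-fold and 7 genes differed by less, with 6 of the 9 genes higher by any amount. The median log2 difference (icariin minus DMSO) of the 9 genes was 0.59, beside -0.02 over all genes. Over all genes, 6.51% reached 2-fold in the higher direction and 7.01% in the lower. The genes were chosen with this contrast known, so nothing is read from these shares. Levels are RMA intensities on a linear scale. A gene is called above the receptor level when its intensity exceeds the 95th percentile of genes annotated as olfactory or vomeronasal, which BMSCs are taken not to use. This level was 148 with DMSO and 168 with icariin. Of the 9 genes, 8 lay above it on both arrays and Tp53inp1 on neither. Tp53inp1 is 1 of the 6 genes higher by any amount, and without it the median log2 difference was 0.54. The 9297 genes that exceed it with and without icariin are called detected genes here. Of the detected genes, 2.97% reached 2-fold in the higher direction and 4.43% in the lower, and the middle 95% of their log2 differences ran from -1.21 to 1.05.

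**Figure D2:**
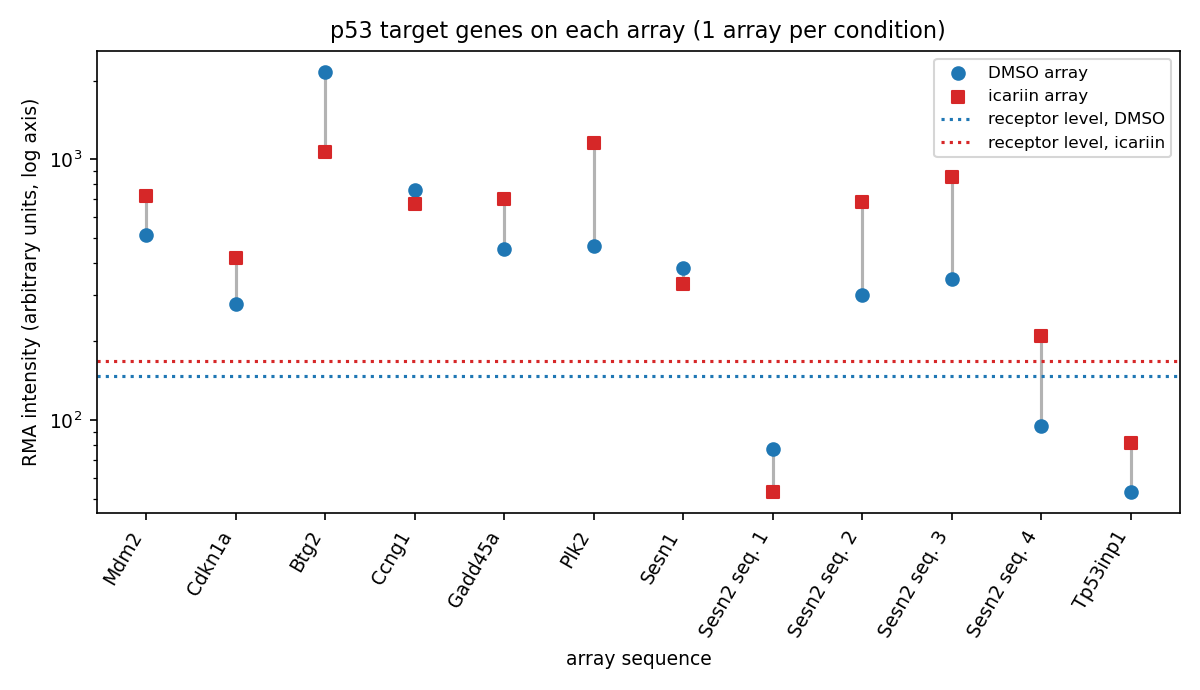
RMA intensity (log axis) of each array sequence of the 9 p53 target genes, with the DMSO array as blue circles, the icariin array as red squares and the receptor level of each array as a dotted line. Plk2 goes up from 464 to 1151 and Btg2 down from 2161 to 1061, and of the Sesn2 sequences, numbered 1 to 4, number 1 lies below the receptor level on both arrays.

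Mdm2, the ubiquitin ligase that restrains p53 and is itself a p53 target, went from 512 to 724. This is a 1.41-fold higher value (log2 difference 0.50), and 13.7% of the detected genes were higher by at least as much. Its paralog Mdm4, which binds p53 without being a strong ligase, read 145 with DMSO, below the receptor level, and 169 with icariin, barely above it. The inhibitors thus differed by less than 2-fold, and the amount of p53 protein, which is set largely by its stability, was not measured.

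Among the genes that halt the cell cycle, Cdkn1a encodes p21, the inhibitor of cyclin-dependent kinases through which p53 arrests cells. It read 278 with DMSO and 417 with icariin, 1.5-fold higher (log2 difference 0.59). This difference lies inside the middle 95% of genes, with 10.3% higher by at least as much. Of its paralogs, Cdkn1b, which encodes p27, read 57.0 and 162 and stayed under the receptor level in each condition. Cdkn1c, which encodes p57, read 490 and 427 and was 1.15-fold lower.

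Gadd45a, a small stress protein that binds cell cycle kinases and upstream kinases of p38, went from 452 to 701, 1.55-fold higher (log2 difference 0.63). The other members of its family went the opposite way. Gadd45b, which is induced by NF-kappa B and by TGF-beta, went from 2695 to 1230, 2.19-fold lower, and Gadd45g, induced by cytokines, from 1107 to 411, 2.70-fold lower. All 3 were detected genes, so within this family the p53 target was higher while the paralogs were at least 2-fold lower.

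Btg2, an antiproliferative protein that recruits the deadenylase complex to messenger RNA, read 2161 with DMSO and 1061 with icariin. The value was 2.04-fold lower (log2 difference -1.03), and 4.10% of the detected genes were lower by at least as much. The gene lies just past the 2-fold limit, and its log2 difference was short of 2-fold after a level-dependent loess correction (-0.94), after centring on the detected genes (-0.98) and with 64 added to both values (-0.98). Of the other BTG and TOB genes, Btg3 was 1.68-fold lower (611 and 362), and Btg1 was 1.21-fold higher (1282 and 1547). Tob1 and Tob2 differed by less than 1.3-fold. Btg4, known mainly from oocytes, read 51.4 and 219 and was at least 1.31-fold higher, where a value under the higher receptor level was raised to it.

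Ccng1, the cyclin G1 gene, whose product recruits a phosphatase to Mdm2, was nearly level. It read 761 with DMSO and 672 with icariin, 1.13-fold lower, and 39.0% of the detected genes were lower by at least as much. The paralog Ccng2, a target of FOXO factors, read 180 and 182. Both cyclin G genes thus read nearly the same with and without icariin.

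Plk2, a polo-like kinase that acts at the duplication of centrioles, showed the largest difference of the 9 genes. It went from 464 on the DMSO array to 1151 on the icariin array, 2.48-fold higher (log2 difference 1.31). Only 1.15% of the detected genes were higher by at least as much. Under the settings that could move it (loess, centring and a constant added to both values), its log2 difference ran from 1.20 to 1.40. Among its paralogs, Plk1, the mitotic kinase, read 336 and 464 (1.38-fold higher), and Plk3, which is also listed as a p53 target, 221 and 274 (1.24-fold higher). Plk4, the main kinase of centriole duplication, went from 255 to 70.3 and was at least 1.52-fold lower, since the icariin value is below the receptor level. Plk5 read 168 and 132. The polo-like kinases thus differed in direction.

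Sestrins curb oxidative stress and the growth kinase complex mTORC1. Sesn1, the sestrin first described as a p53-activated gene, read 383 and 332, 1.15-fold lower. Sesn2, which also answers to amino acid shortage, was measured by 4 predicted transcripts filed under an older symbol, and they did not read alike. Sequence 2 (coding length 1458 bases) went from 300.2 to 685, 2.28-fold higher. Sequence 3 (coding length 1443 bases) went from 348 to 851, 2.45-fold higher. Both thus read brighter with icariin, on 1 array per condition. Sequence 4, a shorter prediction of 516 bases, went from 94.4, below the receptor level, to 211. Sequence 1 (coding length 1467 bases) read 77.5 and 52.9 and was below the receptor level on both arrays. The predictions belong to 1 gene and can share probe targets, so they are no replicates of each other.

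The mean of the 4 Sesn2 sequences was 1.71-fold higher (log2 difference 0.77), short of 2-fold, whereas the mean of sequences 2 and 3, which exceed the receptor level in both conditions, was 2.36-fold higher (1.24). This second summary was chosen after the values had been seen, and with it Sesn2 joins Plk2 as at least 2-fold higher. The log2 differences of the 4 sequences spanned 1.84, against a median span of 0.57 over the 1956 genes with several sequences. Sesn3, a sestrin under the control of FOXO factors, went from 233 to 82.3 and was at least 1.39-fold lower. Sesn1, Sesn2 and Sesn3 were thus nearly level, higher and lower, in this order.

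Tp53inp1, filed on the array as Trp53inp1, a nuclear protein that helps p53 direct cell death and takes part in autophagy, read 53.1 and 81.9. Random-sequence probes read 73.8 and 78.4 on the arrays, and the receptor level lay higher still, so the ratio of this gene is not given. Its paralog Tp53inp2, an autophagy protein, read 705 and 518, 1.36-fold lower.

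**Figure D3:**
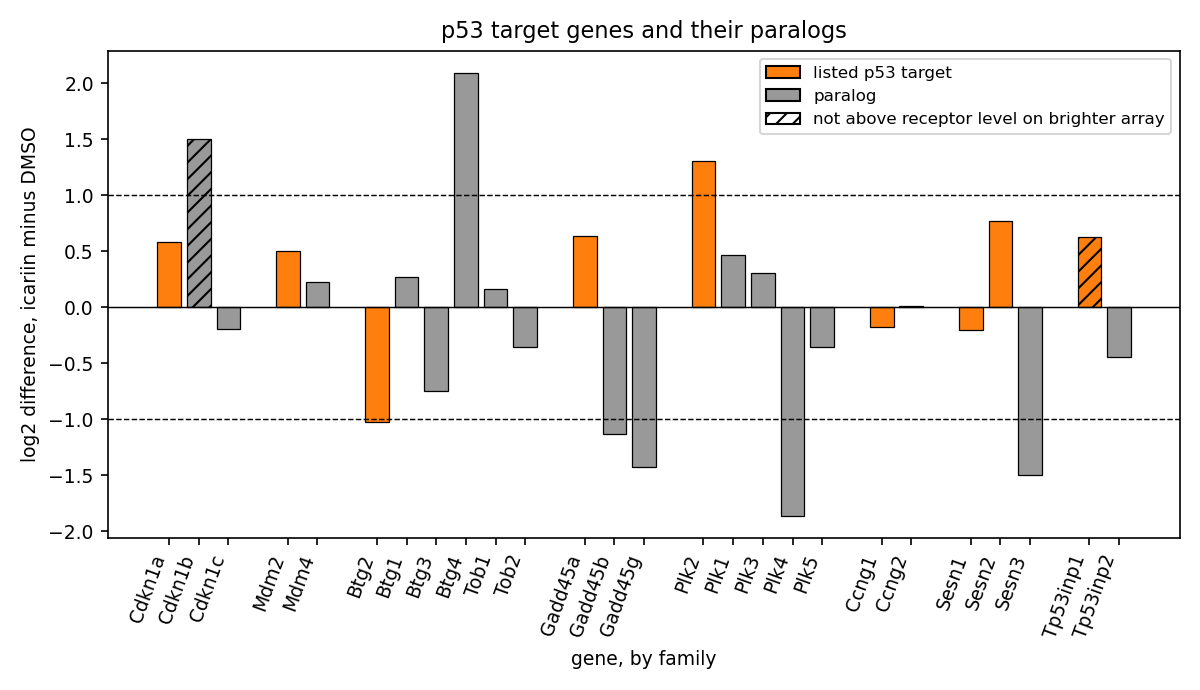
Log2 difference (icariin minus DMSO, from 1 array each) of the listed p53 target genes (orange) and their paralogs (grey), grouped by family, with hatched bars for genes not above the receptor level on the brighter array and dashed lines at 2-fold. Gadd45a (0.63) stands against Gadd45b (-1.13) and Gadd45g (-1.43), and Sesn2 (0.77) against Sesn3 (-1.50). Bars without hatching can still rest on a dimmer value below the receptor level, as for Sesn3, which was at least 1.39-fold lower. The Sesn2 bar is the mean of 4 sequences that did not read alike.

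The family and upstream regulators of p53 gave a single gene past 2-fold. Of 26 measured genes of this list, 1 was at least 2-fold higher, none was lower by as much and 25 were neither, with a median log2 difference of 0.17, beside 6.51% higher, 7.01% lower and a median of -0.02 over all genes. The higher gene was Prkdc, the catalytic subunit of the DNA-dependent protein kinase, which read 83.5 and 195. Its 2-fold difference rests on a DMSO value below the receptor level, and with that value raised to the level it was at least 1.16-fold higher. Ep300, the acetyltransferase that acts as a coactivator of p53, went from 522 to 833, 1.60-fold higher. Tp73, a p53 relative, read 108 and 197, from below to above the receptor level. The kinases Atm, Atr, Chek1 and Chek2, which pass DNA damage signals to p53, stayed under the receptor level in each condition, as did 8 genes of the list in all.

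The other targets of p53 were followed in lists by role, 68 measured genes in all. Of these, 2 reached 2-fold in the higher direction, 1 in the lower and 65 in neither, beside 6.51% and 7.01% of all genes. The median log2 difference was 0.08, beside -0.02 over all genes and 0.59 for the 9 genes above. Of the 68 genes, 38 were higher and 30 lower by any amount.

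Other targets that halt the cell cycle had a median of 0.26, beside -0.02 over all genes, with 10 of 12 genes higher by any amount. Of the 12 genes, 4 stayed under the receptor level in each condition, so the direction of their differences is uncertain. Klf4, a zinc finger factor that also activates Cdkn1a, was the 1 gene at least 2-fold higher, from 377 to 1030 (2.73-fold). Zmat3, a zinc finger RNA-binding protein induced by p53, went from 202 to 252, and Gtse1, a protein of G2 and S phase that restrains p53, read 117 and 193, at least 1.15-fold higher. Irf1, an interferon regulatory factor, was 1.39-fold lower, from 2169 to 1564.

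Redox and metabolism targets had a median of -0.01, with 6 of 13 genes higher and 7 lower by any amount. Tigar, a fructose bisphosphatase that diverts glucose away from glycolysis, went from 190 to 374, 1.97-fold higher and just short of 2-fold. Gamt, an enzyme of creatine synthesis, went from 1066 to 528, 2.02-fold lower, and Ak1, an adenylate kinase, from 3525 to 2026, 1.74-fold lower. Steap3, an iron reductase, was 1.65-fold lower (379 and 229). The list thus held members of both directions.

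Apoptosis targets had a median of 0.24, beside -0.02 over all genes, with 14 of 21 genes higher by any amount. Of the 21 genes, 3 stayed under the receptor level in each condition. Only Pidd1, a scaffold that activates caspase-2, passed 2-fold, and its readings (65.6 and 137) were under the receptor level in each condition. Triap1, an inhibitor of apoptosis in spite of its place in the list, read 128 and 247, at least 1.48-fold higher. Bcl6, a transcriptional repressor, was 1.69-fold higher (336 and 569), and Tnfrsf10b, a death receptor, was 1.65-fold higher (181 and 299). Rps27l, a ribosomal protein relative that affects Mdm2, was 1.76-fold lower (1227 and 697).

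DNA repair targets and secreted targets gave no gene past 2-fold in either direction, beside 6.51% higher and 7.01% lower over all genes. The 9 repair genes had a median of -0.08, and 5 of them stayed under the receptor level in each condition. Pcna, the sliding clamp of replication and repair, went from 1040 to 545, 1.91-fold lower. Xpc, a sensor of damaged DNA, and Mgmt, which removes alkyl groups from guanine, differed by less than 1.1-fold. The 13 secreted and matrix genes had a median of -0.05, and 2 of them stayed under the receptor level in each condition. Hbegf, a growth factor, was 1.46-fold higher (1138 and 1659), and Adgrb1, an adhesion receptor with an antiangiogenic fragment, 1.22-fold lower. Gdf15, a stress cytokine, read 211 and 134, at least 1.26-fold lower.

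Genes that p53 represses through p21 and the DREAM complex, most of them genes of mitosis, had more members lower than higher, and many were dim. Of 30 genes, 4 were lower by at least 2-fold and none was higher by as much, with 21 lower by any amount and a median of -0.17. Over all genes 7.01% were lower and 6.51% higher by as much, with a median of -0.02. As many as 16 of the 30 stayed under the receptor level in each condition, Bub1b and Nek2 of the 4 among them. Kif23, a kinesin of cytokinesis, went from 295 to 105, below the receptor level, and was at least 1.76-fold lower, and Plk4, given above, belongs to this list as well. Aurkb, a kinase of chromosome segregation, was 1.90-fold lower (331 and 174), whereas Aurka, a kinase of the spindle pole, was 1.66-fold higher (296 and 490). With values raised to the receptor level, none of the 30 genes differed 2-fold.

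**Figure D4:**
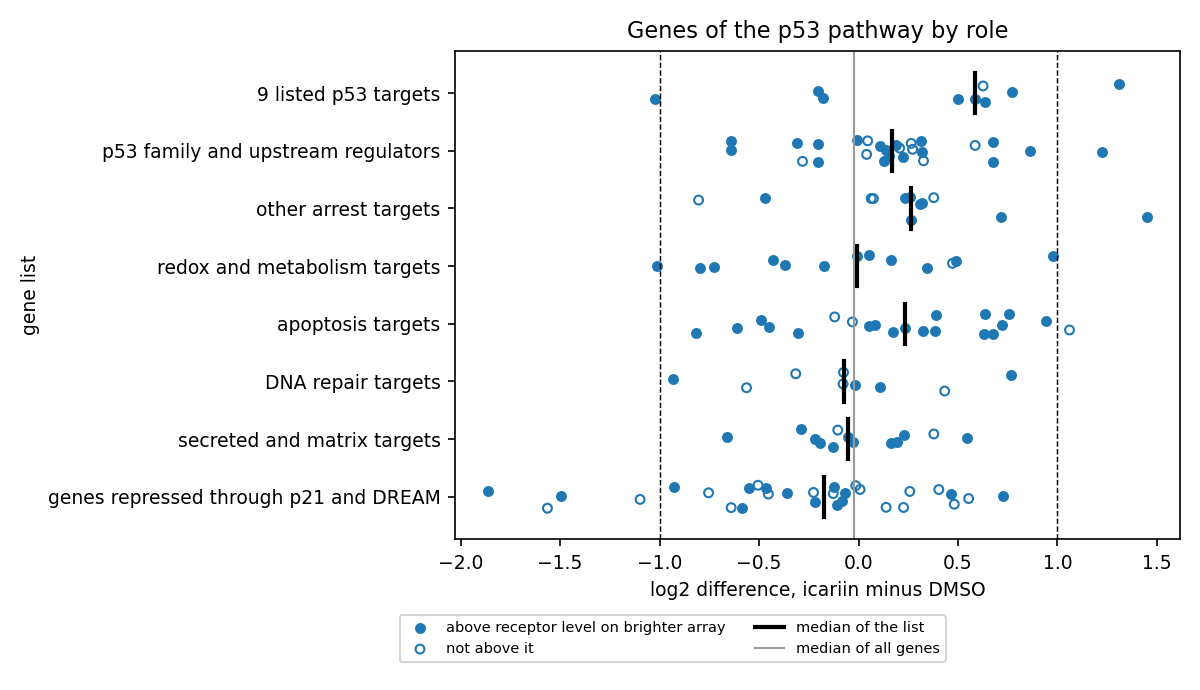
Log2 difference (icariin minus DMSO, from 1 array each) of the genes of the p53 pathway, by role, with open circles for genes not above the receptor level on the brighter array, black bars for the median of each list, dashed lines at 2-fold and a grey line for the median of all genes (-0.02). The median of the 9 listed p53 targets is 0.59 and that of the genes repressed through p21 and DREAM is -0.17.

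Markers of blood cells differed between the arrays. Beside the counts that follow, 6.51% of all genes reached 2-fold in the higher direction and 7.01% in the lower. Of 15 macrophage and monocyte markers, 9 were at least 2-fold higher on the icariin array and none was lower by as much, and their summed intensity was 6405 and 19493. Of 10 pan-leukocyte markers, 6 reached 2-fold (sums of 1992 and 4179). Of 14 marrow stromal markers, 13 lay above the receptor level on the brighter array, none was higher by 2-fold and only Vcam1 was lower by as much (sums of 122785 and 141116). Erythroid markers were lower in 3 of 8 cases by at least 2-fold (5479 and 3295), lymphocyte markers summed to 863 and 1484, and endothelial markers to 898 and 986. The p53 target genes differed in both directions between the same arrays, and the part of these markers in their differences was not tested.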

How the data were processed

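Total RNA of 1 DMSO-treated and 1 icariin-treated BMSC sample was hybridised to NimbleGen rat arrays with Cy3. The deposited intensity values had been quantile-normalized and summarised by RMA in NimbleScan by the authors, whose version is not given in the sources used here. Quantile normalization would hide a change of all transcripts in 1 direction. Sequences were named through the RefSeq table of GRCr8 by gene identifier (20681), accession (31) or the symbol of the file (5707). The log2 values of a gene's sequences were averaged, and genes were called at 2-fold. Where the dimmer value was below the receptor level (1495 genes, 95th percentile), values under 168 were raised to it and the ratio is given as "at least", a convention and not a sure bound.

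The 9 genes and all lists were chosen with earlier results of these data known. The text names the 9 genes and their paralogs, and of each list the genes past 2-fold or with the 4 largest differences among those above the receptor level; Pidd1, Bub1b, Nek2 and the DNA damage kinases were named after their values were seen, and a few genes that this rule names are not reported here. Counts of the lists were checked under 10 other settings, and those of the 9 genes under 1 more chosen after the values were seen. The log2 differences of the 9 genes were checked under up to 6 of the 10 settings, not all of which could move a gene with 1 sequence. Ratios of single genes outside the 9 were not checked. Lists held 7 targets and 1 regulator that were not matched to the array. The standard errors in the array files were not used. The code that makes the fold calls was run on simulated data, which cannot show how far these arrays differ by noise. Python 3.11.15, pandas 2.3.3 and statsmodels 0.14.6 were used.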

Additional observations from a re-analysis of the deposited data

How the results depend on the processing

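With 1 array per condition, no replicate can be left out, and depth cannot be read from an array. No paired analysis was possible because each condition has 1 array. Medians of the 9 genes, the 68 other targets, the 26 regulators and the 30 repressed genes moved by less than 0.2 under every setting tried. That limit is wider than the medians of the 68, 26 and 30 genes themselves (0.08, 0.17 and -0.17). With values raised to the receptor level, the medians of these lists were 0. Counts that stayed within 1.5 times are not listed. Plk2 stayed at least 2-fold higher under the 6 settings that give it a value at this fold. Cdkn1a, Mdm2, Gadd45a, Ccng1 and Sesn1 kept their direction and stayed under 2-fold. Each of these genes, Plk2 included, has 1 sequence, which lies above the receptor level on both arrays. The value table of the series, the brightest sequence and values raised to the receptor level therefore had to return their main values. Only loess, centring and a constant added to both values could move them. Sesn2 ran from 0.68 to 1.29 on the log2 scale.

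The count of the 9 genes at least 2-fold higher (1) was 2 with the value table of the series, which omits the dim Sesn2 sequence and Tp53inp1, 2 with the brightest sequence of each gene, 2 with Sesn2 taken from its sequences above the receptor level, and 4 over sequences. The count at least 2-fold lower (1, Btg2) was 0 with loess, with centring and with 64 added. At 1.5-fold 5 of the 9 were higher, Cdkn1a just at that limit and Tp53inp1 with readings under the receptor level in each condition. Of the detected genes, 10.3% were higher by at least as much as Cdkn1a. At 3-fold 0 were higher and 0 lower. Shares over all genes were counted at 2-fold only, so nothing is read from the counts at 1.5-fold and 3-fold.

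For the 68 other targets, 2 higher became 1 with 64 added, with values raised to the receptor level and over genes above it, and 1 lower (Gamt) became 0 with loess, with centring and with 64 added. At 1.5-fold 11 were higher and 8 lower, and at 3-fold 0 and 0. For the regulators, 1 higher became 2 with the brightest sequence and over sequences, 0 with 64 added and 0 with values raised to the receptor level. At 1.5-fold 5 were higher and 2 lower, and at 3-fold 0 were higher. For the repressed genes, 4 lower became 2 with 64 added, 0 with values raised to the receptor level and 2 over genes above it, and 0 higher became 1 with the brightest sequence and over sequences. At 1.5-fold 1 was higher and 8 were lower, and at 3-fold 1 was lower. The cause of these changes was not tested.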

Other observations

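The cyclic AMP response element shared by the promoter windows of Plk2 and Btg2 was followed over all genes, as a description chosen after both sequences had been seen. Of 191 detected genes that carry it (detected meaning above the receptor level with and without icariin), 16 (8.38%) reached 2-fold in the lower direction and 2 (1.05%) in the higher, beside 4.43% and 2.97% of all detected genes. The median log2 difference of the 191 genes was -0.18. Plk2 was 1 of the 2 higher genes, the other being Dhrs7b at 2.01-fold, and Btg2 was 1 of the 16 lower genes. Since Plk2 and Btg2 led to the choice of the element, nothing is read from these shares. The largest differences among the lower genes were those of Ahi1, from 741 to 185, and Lmcd1, a LIM domain protein, from 5351 to 1362. Next came Clstn3, from 854 to 241, and Rcan1, an inhibitor of calcineurin, from 1216 to 355. Detected genes whose window held a p53 pair with up to 2 mismatches, 203 in all, had a median of -0.04, with 3 past 2-fold in the higher direction and 7 in the lower. No test of either motif was made.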
